A study of Mus musculus with 7 samples.

Results

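The collagen genes of the Nkx3.1-/- mouse prostate were compared between mice given the antioxidant N-acetylcysteine (NAC), from which cells make glutathione, and mice given vehicle. A gene was counted as a collagen when its symbol is Col, a number, the letter a and a number, as in Col1a1. Of 18938 genes with a value, 43 met this rule, each with a single probe set. They comprised 11 fibrillar collagens, 6 basement membrane collagens of type IV and 26 collagens of other types. Arrays were hybridized with RNA from 4 NAC mice (NAC 1 to NAC 4) and 3 vehicle mice (vehicle 1, vehicle 2 and vehicle 4), and a further vehicle array had not passed the authors' quality control. All 7 mice were homozygous null for Nkx3.1, a homeobox gene of the prostate epithelium, and of recombinant inbred B6/129 strain. NAC mice had drunk water with 5 mM NAC and vehicle mice plain water for 13 weeks after weaning, and both groups were 16 weeks old at collection. Vehicle mice thus carried the null alleles too, and no Nkx3.1 wild-type mouse was part of the comparison. Mice of a litter were split over cages by treatment, so cage and treatment cannot be told apart. The extraction protocol names the anterior prostate, while a tissue label names the whole prostate.

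Collagens are secreted matrix proteins whose chains wind around each other into a rope-like helix. Fibrillar types assemble into the cross-linked fibers that give tissue its tensile strength, type IV forms the sheet-like network of basement membranes, and the remaining types decorate fibrils, form fine filaments or anchor cells. In the prostate, fibroblasts and smooth muscle cells of the stroma lay down most fibrillar collagen, and basement membranes underlie the glandular epithelium and surround smooth muscle and vessels.

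Values are log2 expression, normalized by the authors across arrays, and are compared between mice and not between genes, since probe sets differ in brightness. Array medians lay between 7.12 and 7.16. At least 3 of the 7 arrays held an identical value for 19 of the 43 collagens (44.2%) and for 7568 of all 18938 genes. Markers of the prostate epithelium were present throughout, with Krt18 between 12.56 and 12.60 and the anterior prostate transglutaminase Tgm4 between 13.96 and 14.02 on every array. Basal cell markers varied more, with Krt5 between 8.37 and 9.40 and Trp63 between 8.50 and 9.04. NAC 3 stood apart in transcripts of other tissues, as detailed with the cell type markers, so many values are also given without it. In a piece of tissue, fewer cells of a type and less RNA per cell cannot be told apart. Each array held RNA of a single mouse. The p-values set a difference against the spread between mice, which limma estimates with the help of all genes.

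No collagen passed the test, but most had slightly higher means with NAC. Of the 43 genes, 39 were higher and 4 lower with NAC (90.7% higher), while 49.5% of all genes were higher. The median log2 fold change over the collagens was 0.056, against -0.0003 over all genes. All 11 fibrillar collagens were higher, with a median of 0.066 and a range of 0.027 to 0.17. Of the type IV genes, 5 were higher and 1 lower (median 0.033). Of the other types, 23 were higher and 3 lower (median 0.052), over a range of -0.07 to 0.32. Without NAC 3, 35 were higher and 8 lower (81.4% higher, against 49.3% of all genes), with medians of 0.044 over all collagens, 0.050 for fibrillar, 0.033 for type IV and 0.045 for other collagens. These differences are a few hundredths of a log2 unit. The class averages of the 4 NAC arrays had SDs of 0.05 to 0.08, and those of the vehicle arrays 0.01 to 0.03.

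By limma, 0 collagens passed an adjusted p of 0.05 (over all genes), the smallest being 0.827. The same threshold was passed by 0% of all genes in either direction, and by 0% in either direction without NAC 3. At an unadjusted p under 0.05, 2 collagens were higher, Col6a5 and Col5a2, against 1.89% of all genes, and 0 were lower, against 2.53%. Without NAC 3, only Col6a5 was left (limma unadjusted p = 0.018), against 1.51% of all genes higher and 1.85% lower. Col6a5 was also the 1 collagen whose NAC arrays all lay above its vehicle arrays, which was so for 1.29% of all genes. No collagen had all NAC arrays below the vehicle arrays, against 2.18% of all genes. Without NAC 3, these backgrounds were 2.17% higher and 3.16% lower, and Col6a5 remained the only collagen without overlap. A test with unequal variances also gave 0 collagens past the threshold, and 1 at an unadjusted p under 0.05, against 379 of all 18938 genes.

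**Figure D1:**
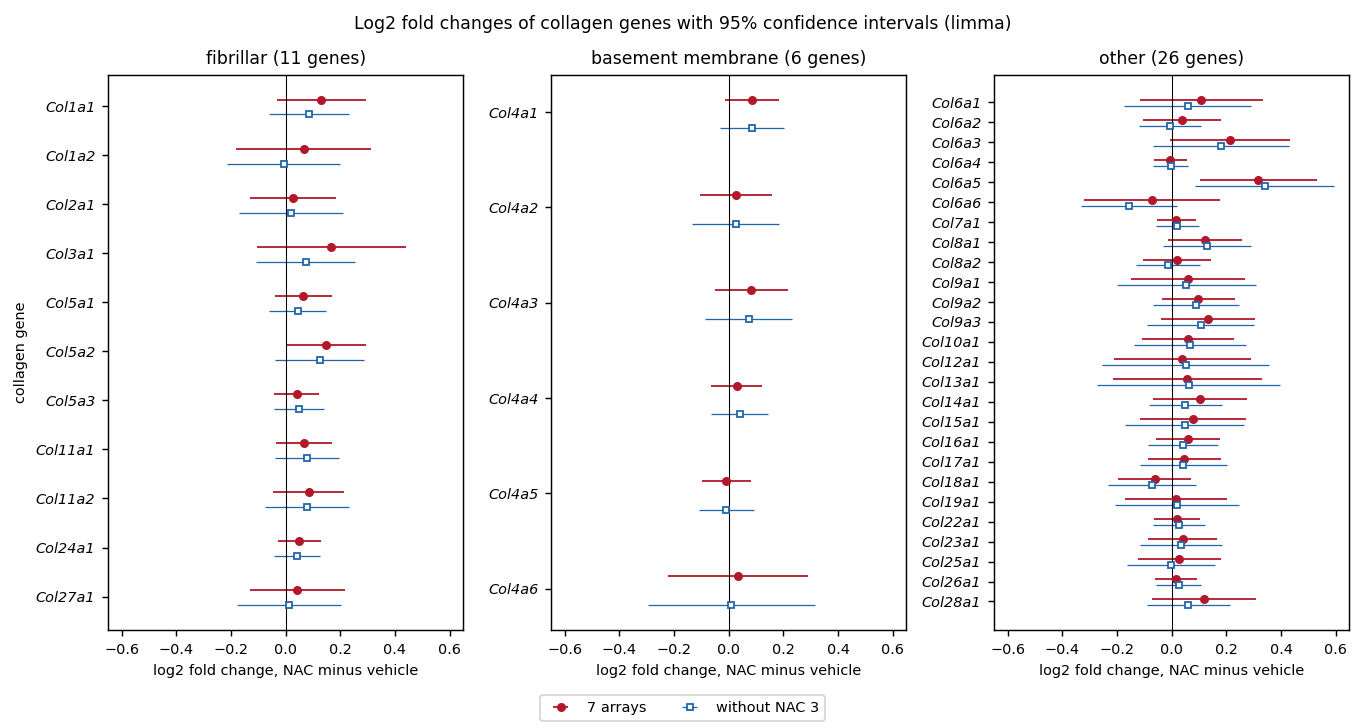
Log2 fold changes (x axis, NAC minus vehicle) of the 43 collagen genes (y axis) with 95% confidence intervals from limma, by class, with all 7 arrays (filled circles) and without NAC 3 (open squares). Most points lie just right of 0 and nearly all intervals cross it, the exceptions with 7 arrays being Col6a5 (0.10 to 0.53) and Col5a2, whose interval starts at 0.002.

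The chains of type I collagen, the main fiber protein of connective tissue, are encoded by Col1a1 and Col1a2, and that of type III, its partner in distensible organs, by Col3a1. Col1a1 was at 8.79, 8.60, 8.86 and 8.64 on NAC 1 to NAC 4, against 8.64, 8.57 and 8.57 on vehicle 1, 2 and 4. NAC 1 and NAC 3 lay above every vehicle array, while NAC 4 was level with vehicle 1. The log2 fold change was 0.13 (standard error 0.07), and 0.09 without NAC 3 (standard error 0.06). Col1a2 was at 8.83, 8.52, 8.98 and 8.69 on the NAC arrays, against 8.75, 8.63 and 8.69 on the vehicle arrays. NAC 2 was the lowest and NAC 3 the highest of the 7 arrays. Its log2 fold change of 0.07 (standard error 0.10) was -0.0077 without NAC 3. Col3a1, described with type I after its values were seen, was at 8.30, 8.05, 8.53 and 8.11 with NAC, against 8.03, 8.10 and 8.12 with vehicle. NAC 3 and NAC 1 were above all vehicle arrays, and NAC 2 and NAC 4 were among them. Its log2 fold change was 0.17 (standard error 0.11), and 0.07 without NAC 3. These type I and type III genes thus had the same order of arrays within the NAC group, with NAC 3 highest, NAC 1 next, and NAC 2 lowest.

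Because these genes shared this order, the promoter windows of Col1a2 and Col3a1 (250 bases before to 50 bases after the annotated start, RefSeq, GRCm38.p6, both on the plus strand) are shown, with GC boxes (GGGCGG on either strand) in capitals. The Col1a2 window, at chr6:4505368-4505667, holds 2 GC boxes, and the Col3a1 window, at chr1:45311288-45311587, holds none of these letters.
Col1a2: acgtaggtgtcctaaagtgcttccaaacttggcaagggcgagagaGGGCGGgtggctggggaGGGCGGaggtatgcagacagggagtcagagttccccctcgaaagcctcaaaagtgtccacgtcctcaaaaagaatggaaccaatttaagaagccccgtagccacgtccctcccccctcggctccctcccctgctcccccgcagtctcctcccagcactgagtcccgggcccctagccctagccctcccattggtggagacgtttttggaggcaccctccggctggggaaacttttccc
Col3a1: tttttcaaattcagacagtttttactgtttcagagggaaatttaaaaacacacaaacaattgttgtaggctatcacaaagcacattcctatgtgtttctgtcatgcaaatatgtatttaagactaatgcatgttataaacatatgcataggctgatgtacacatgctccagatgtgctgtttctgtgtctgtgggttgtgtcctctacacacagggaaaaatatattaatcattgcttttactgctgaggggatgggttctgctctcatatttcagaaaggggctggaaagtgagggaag
Windows were found for 34 of the 43 collagens, 37 windows in all, and Col1a1 was among the genes without a window. A GC box was in 23 of them (62.2%), against 35.7% of 32851 windows of all genes. CCAAT on either strand, whose matches can share letters with a GC box, was in 13 (35.1%), against 37.4%. Such a match is a run of letters and does not show a bound factor.

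Type V and type XI collagens co-assemble with the major fibrillar types and limit fibril width. Col5a2 was at 6.71, 6.68, 6.83 and 6.85 with NAC, against 6.63, 6.69 and 6.53 with vehicle. All NAC arrays except NAC 2 were above the highest vehicle array. The log2 fold change was 0.15 (standard error 0.06, 95% confidence interval 0.002 to 0.29), with an unadjusted limma p of 0.048 and an adjusted p of 0.827. Without NAC 3 it was 0.12 (limma unadjusted p = 0.109), and without vehicle 4 it was 0.10. The other type V chains, Col5a1 and Col5a3, had log2 fold changes of 0.07 and 0.04. Col11a1, best known from cartilage, was at 6.54 on NAC 1, NAC 2 and NAC 3 and 6.67 on NAC 4, against 6.54, 6.50 and 6.48 with vehicle. Only NAC 4 lay above the vehicle arrays. Col11a2 was at 7.23, 7.21, 7.30 and 7.38 with NAC, against 7.12, 7.23 and 7.23 with vehicle, and its log2 fold change was 0.08 (standard error 0.05). The cartilage collagen Col2a1 (0.027) and Col24a1 (0.050) and Col27a1 (0.043), fibrillar chains of bone and cartilage, completed the class. Markers of cartilage outside the collagens, such as aggrecan and matrilins, were higher in 3 and lower in 4 of 7 cases, and their average deviation lay between -0.02 and 0.02 on every array.

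**Figure D2:**
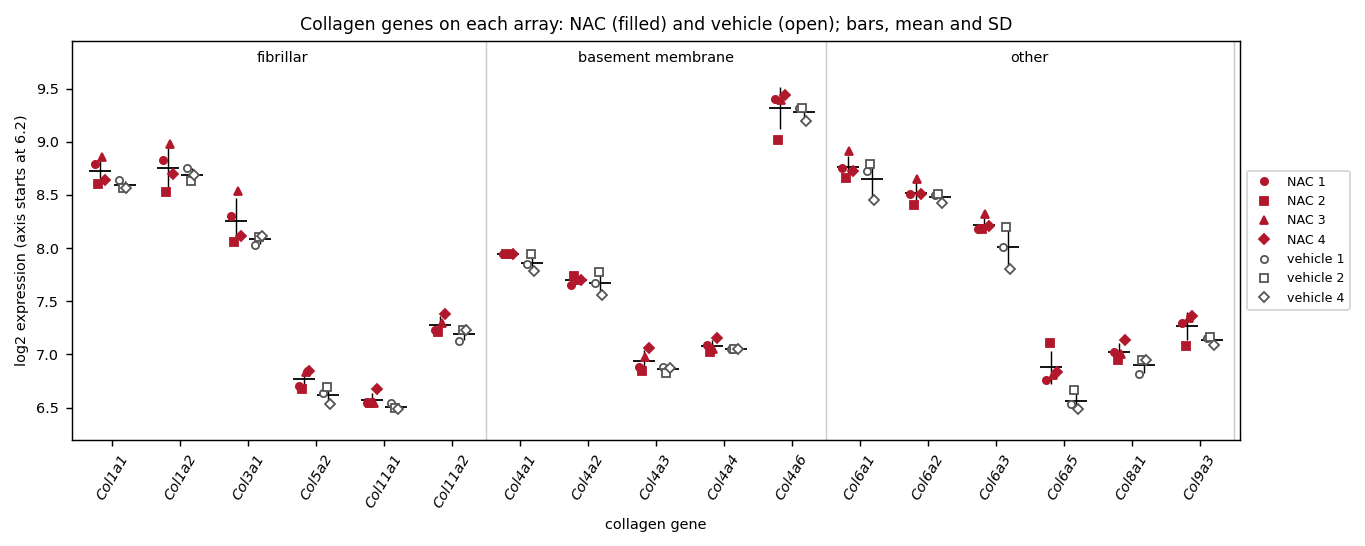
Log2 expression (y axis, starting at 6.2) of fibrillar, type IV and other collagens (x axis) on each NAC array (filled, red, n = 4) and each vehicle array (open, grey, n = 3), with bars for the mean and SD. Shown are the collagens whose values on every array are in the text, except Col4a5, Col6a4 and Col6a6. The groups overlap for every gene shown except Col6a5, and NAC 3 (triangles) is the highest point for Col1a1, Col1a2, Col3a1, Col6a1, Col6a2 and Col6a3.

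Type IV collagen is built from several alternative chains. Col4a1 and Col4a2 make the form found in nearly all basement membranes. Col4a1 was at 7.94 on NAC 1, NAC 2 and NAC 3 and 7.95 on NAC 4, against 7.85, 7.94 and 7.78 on the vehicle arrays. The NAC arrays were at the level of vehicle 2, and vehicle 1 and vehicle 4 were below it. The log2 fold change was 0.09 (standard error 0.04, limma unadjusted p = 0.080), and was the same to 2 decimals without NAC 3. It was 0.048 without vehicle 4 (limma unadjusted p = 0.24) and 0.13 without vehicle 2 (limma unadjusted p = 0.0098). Leaving out the lowest vehicle array had to lower the difference, and leaving out the highest had to raise it. Col4a2 was at 7.65, 7.74, 7.70 and 7.70 with NAC, against 7.67, 7.78 and 7.56 with vehicle, and its log2 fold change was 0.027 (standard error 0.06). Both genes were highest on vehicle 2 and lowest on vehicle 4 among the vehicle arrays. They lie head to head on chromosome 8, with annotated starts 21 bases apart, and the Col4a1 (minus strand, chr8:11312777-11313076) and Col4a2 (plus strand, chr8:11312555-11312854) windows, which overlap, are shown because they form this shared promoter. GC boxes are again in capitals.
Col4a1: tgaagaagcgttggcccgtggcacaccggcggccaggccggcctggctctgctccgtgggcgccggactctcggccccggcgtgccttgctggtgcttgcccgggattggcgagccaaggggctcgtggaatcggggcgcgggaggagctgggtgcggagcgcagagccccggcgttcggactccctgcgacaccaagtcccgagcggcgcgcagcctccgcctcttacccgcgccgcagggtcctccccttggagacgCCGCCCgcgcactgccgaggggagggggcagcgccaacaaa
Col4a2: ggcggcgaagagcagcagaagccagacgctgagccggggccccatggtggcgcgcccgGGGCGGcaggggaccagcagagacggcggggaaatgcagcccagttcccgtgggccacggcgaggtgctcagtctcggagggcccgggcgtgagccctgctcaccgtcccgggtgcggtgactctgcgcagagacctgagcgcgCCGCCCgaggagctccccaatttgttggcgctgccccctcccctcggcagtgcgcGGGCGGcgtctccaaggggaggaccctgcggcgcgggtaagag
The box in the Col4a1 window and the last box in the Col4a2 window are the same letters read from opposite strands.

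Col4a3, Col4a4 and Col4a5 form the type IV network of the kidney filter and lung, and Col4a5 and Col4a6 that of smooth muscle and some epithelia. Col4a3 was at 6.89, 6.85, 6.97 and 7.06 with NAC, against 6.89, 6.82 and 6.87 with vehicle, a log2 fold change of 0.08 (standard error 0.06). Col4a4 was at 7.09, 7.02, 7.05 and 7.16 with NAC, against 7.05 on each vehicle array. For both, NAC 4 was the highest array, and NAC 2 lay within or below the vehicle range. Col4a5 was the 1 type IV gene with a lower mean (log2 fold change -0.0083), at 7.49 on all NAC arrays, against 7.43, 7.49 and 7.56 with vehicle. Col4a6, whose start lies 1343 bases from that of Col4a5 on the X chromosome, was at 9.41, 9.02, 9.39 and 9.44 with NAC, against 9.32, 9.32 and 9.19 with vehicle. NAC 2 was below every vehicle array, and the other NAC arrays were above them. For Col4a6 the log2 fold change was 0.035 (standard error 0.11, limma unadjusted p = 0.753). It was 0.13 without NAC 2 (limma unadjusted p = 0.029), but leaving out the lowest array had to raise the difference. When types XV and XVIII, which also sit in basement membranes, were counted with type IV, the median was again 0.033.

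Type VI collagen forms beaded filaments between basement membranes and fibrils, and its 6 genes fall into the widely expressed Col6a1, Col6a2 and Col6a3 and the more restricted Col6a4, Col6a5 and Col6a6. Of the 6, 4 were higher and 2 lower with NAC (median log2 fold change 0.073, and 0.027 without NAC 3). Col6a5, related to Col6a3 in structure, was at 6.76, 7.11, 6.81 and 6.84 on the NAC arrays, against 6.53, 6.66 and 6.49 on the vehicle arrays. The lowest NAC array, NAC 1, lay above the highest vehicle array, vehicle 2, and NAC 2 was well above the rest. Means were 6.88 ± 0.16 (SD, n = 4) with NAC and 6.56 ± 0.09 (SD, n = 3) with vehicle. The log2 fold change of 0.32 (standard error 0.09, 95% confidence interval 0.10 to 0.53) was the largest of the 43 collagens, with an unadjusted limma p of 0.010 and an adjusted p of 0.827. It was 0.34 without NAC 3 (limma unadjusted p = 0.018) and 0.24 without NAC 2 (limma unadjusted p = 0.0053), and neither passed after adjustment over all 18938 genes.

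The Col6a5 window (minus strand, chr9:105960594-105960893, GRCm38.p6) is shown as that of the 1 collagen whose groups did not overlap, with its GC box in capitals.
Col6a5: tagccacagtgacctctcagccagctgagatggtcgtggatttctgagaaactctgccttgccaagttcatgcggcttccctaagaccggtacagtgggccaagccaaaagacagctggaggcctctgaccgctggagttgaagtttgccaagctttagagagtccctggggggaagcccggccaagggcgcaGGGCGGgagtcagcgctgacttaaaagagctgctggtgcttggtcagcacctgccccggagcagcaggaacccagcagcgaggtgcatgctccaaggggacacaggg
Col6a4 and Col6a6, which like Col6a5 lie on chromosome 9 and are given here after their values were seen, did not share its pattern. Col6a4 was at 6.40 or 6.41 on every array of both groups. Col6a6 was at 5.37, 5.48, 5.72 and 5.29 with NAC, against 5.64, 5.48 and 5.48 with vehicle. NAC 3 was its highest array and NAC 4 its lowest, and its log2 fold change of -0.07 (standard error 0.10) was -0.16 without NAC 3.

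The widely expressed type VI chains overlapped between the groups. Col6a1 was at 8.75, 8.66, 8.91 and 8.72 with NAC, against 8.72, 8.79 and 8.45 with vehicle. Col6a2 was at 8.51, 8.40, 8.65 and 8.51 with NAC, against 8.50, 8.51 and 8.43 with vehicle. Col6a3 was at 8.18, 8.18, 8.32 and 8.20 with NAC, against 8.01, 8.20 and 7.80 with vehicle. All of these genes were highest on NAC 3, and in vehicle mice lowest on vehicle 4 and highest on vehicle 2. Log2 fold changes were 0.11 for Col6a1 (standard error 0.09), 0.037 for Col6a2 (standard error 0.06) and 0.21 for Col6a3 (standard error 0.09). For Col6a3, leaving out vehicle 4 gave 0.11 (limma unadjusted p = 0.168) and leaving out vehicle 2 gave 0.31 (limma unadjusted p = 0.0067), so its size moved with single vehicle arrays. Leaving out its lowest vehicle array had to lower the difference, and leaving out its highest had to raise it. Col6a1 had 0.0066 without vehicle 4 and 0.058 without NAC 3, and Col6a2 had -0.0060 without NAC 3.

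Short-chain network collagens, found in vessel walls, cornea and growth cartilage, were higher in 3 of 3 cases (median log2 fold change 0.061), and in 2 of 3 without NAC 3, where Col8a2 was at -0.0128. Col8a1, a chain of vessel walls, was at 7.02, 6.95, 7.00 and 7.14 with NAC, against 6.81, 6.95 and 6.95 with vehicle. NAC 2 was level with vehicle 2 and vehicle 4, vehicle 1 was the lowest, and the difference was 0.12 on the log2 scale (standard error 0.06). Fibril-associated collagens, which coat the surface of fibrils, were higher in 8 of 8 cases, with a median of 0.060 and 0.050 without NAC 3. Among them Col9a3, a chain of type IX on cartilage fibrils, was at 7.29, 7.08, 7.34 and 7.36 with NAC, against 7.16, 7.17 and 7.09 with vehicle. NAC 2 was the lowest array of all, and the other NAC arrays were above every vehicle array. Its log2 fold change was 0.13 (standard error 0.07, limma unadjusted p = 0.114). It was 0.19 without NAC 2 (limma unadjusted p = 0.0022), but leaving out the lowest array had to raise the difference. The 4 transmembrane collagens, among them Col17a1 of the hemidesmosomes that hold basal epithelial cells, were all higher, with a median of 0.044, and without NAC 3, 3 were higher and Col25a1 was at -0.0017. Col7a1, which forms the anchoring fibrils under epithelia, had a log2 fold change of 0.017. Of the multiplexins, whose cleavage gives endostatin-like fragments, Col15a1 had 0.08 and Col18a1 -0.06. Col26a1 and Col28a1 had 0.016 and 0.12.

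The spread within the NAC group shows which arrays carried the higher means. NAC 4 was the highest of the 7 arrays for 21 of the 43 collagens (48.8%, against 19.3% of all genes) and NAC 3 for 13 (30.2%, against 14.8%). NAC 2, by contrast, was the highest array for 1 collagen, against 13.1% of all genes. It was the lowest for 14 collagens, more often than any vehicle array, against 3027 of all 18938 genes. The collagens highest on NAC 3 were those of types I, III and VI together with Col5a1, Col8a2, Col14a1, Col16a1, Col25a1 and Col28a1, except that Col6a4 and Col6a5 were not among them. Averaged over the fibrillar class, the deviation from the mean of the 7 arrays was 0.03, -0.07, 0.11 and 0.07 on NAC 1 to NAC 4, against -0.05, -0.03 and -0.05 on the vehicle arrays. For type IV it was 0.02, -0.05, 0.03 and 0.07 with NAC, against -0.02, 0.01 and -0.06 with vehicle. For the other types it was 0.01, -0.05, 0.08 and 0.07 with NAC, against -0.04, -0.02 and -0.06 with vehicle. In each class NAC 2 thus lay among or below the vehicle arrays, while NAC 1, NAC 3 and NAC 4 lay above every vehicle array. Leaving out NAC 4 left 31 collagens higher (72.1%, against 47.5% of all genes) and a median of 0.035. Leaving out NAC 2 left 39 higher and a median of 0.085, with 7 collagens at an unadjusted limma p under 0.05, all higher, against 2.4% of all genes, and a smallest adjusted p of 0.667. These were Col1a1, Col5a2, Col4a6, Col6a5, Col8a1, Col9a3 and Col16a1. Since NAC 2 was often the lowest array, leaving it out tends to raise the differences, and this count is a description and not a test. Across genes, values were least spread on NAC 4, with an SD of 2.04, against 2.06 to 2.09 on the other NAC arrays and 2.08 to 2.10 on the vehicle arrays, and the part of this in the higher collagen values of NAC 4 was not tested.

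**Figure D3:**
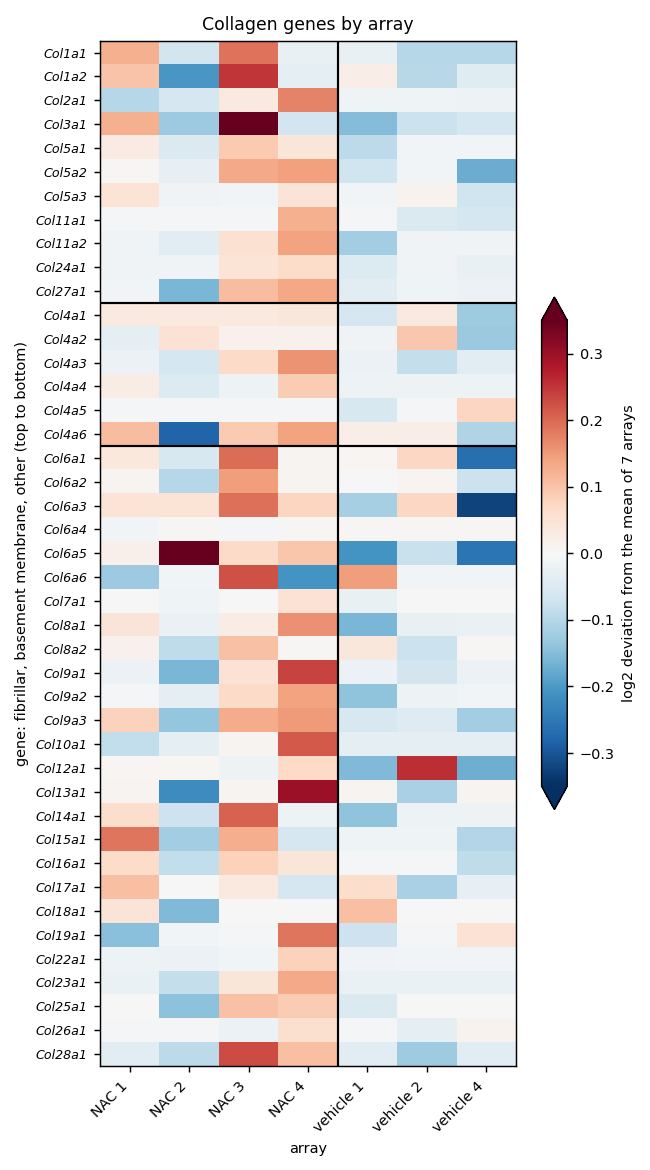
Deviation of each collagen gene (rows, by class from top to bottom) from its mean over the 7 arrays (columns, NAC left of vehicle), as log2 units by color, with the scale ending at -0.35 and 0.35. Red cells gather on NAC 3 and NAC 4, NAC 2 is mostly blue with Col6a5 as its strongest red cell, and the vehicle arrays are mostly pale blue.

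Markers of stromal and other cells were read on the same arrays as a record of the other cells that each sample held. The 10 fibroblast markers, among them Dpt and Gsn, were higher with NAC in 5 cases and lower in 5, and 6 were highest on NAC 3. Their mean level was between 8.51 and 8.75 on NAC arrays and between 8.51 and 8.69 on vehicle arrays. Smooth muscle markers were higher in 1 of 8 cases, with levels of 10.90 to 11.00 with NAC and 10.96 to 11.07 with vehicle. Endothelial markers were higher in 8 of 8 cases and highest on NAC 3 in 7, with levels of 7.34 to 7.65 with NAC and 7.35 to 7.36 with vehicle. Vwf, the clotting factor of endothelium, was at 7.88 on NAC 3 and at most 7.54 on any other array, and the tight junction gene Cldn5 at 7.69 and at most 7.36. Without NAC 3, 4 endothelial markers were higher and 4 lower. Macrophage markers were higher in 7 of 7 cases, with levels of 7.66 to 7.89 with NAC and 7.55 to 7.63 with vehicle. On NAC 2 the average deviation was -0.10 over fibroblast, -0.08 over smooth muscle and -0.06 over endothelial markers, and 0.02 over macrophage markers. Vehicle 1 was as low for fibroblast markers (-0.10) and NAC 4 for endothelial markers (-0.06). The part of such differences in the low collagen values of NAC 2 was not tested. All 7 adipocyte, all 8 skeletal muscle and all 7 lung epithelium markers were highest on NAC 3. There the adipocyte list averaged 1.25, the skeletal muscle list 0.64 and the lung list 1.97 above the mean of the 7 arrays. Their levels were 5.99 to 7.54, 7.02 to 7.81 and 5.70 to 7.9997 on NAC arrays, against 6.04 to 6.12, 7.02 to 7.07 and 5.65 to 5.72 on vehicle arrays. Fabp4, a fatty acid carrier of fat cells, was at 9.41 on NAC 3 and at most 7.54 elsewhere, and Myh4, a myosin of fast muscle, at 7.02 and at most 5.36. Fat, muscle and lung contain collagen of types I, III and VI, and the part of such tissue in the NAC 3 values of these genes was not tested. Markers of seminal vesicle, which adjoins the anterior prostate, had 0 of 7 genes higher, with levels of 8.62 to 10.64 on NAC arrays and 10.01 to 10.39 on vehicle arrays.

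**Figure D4:**
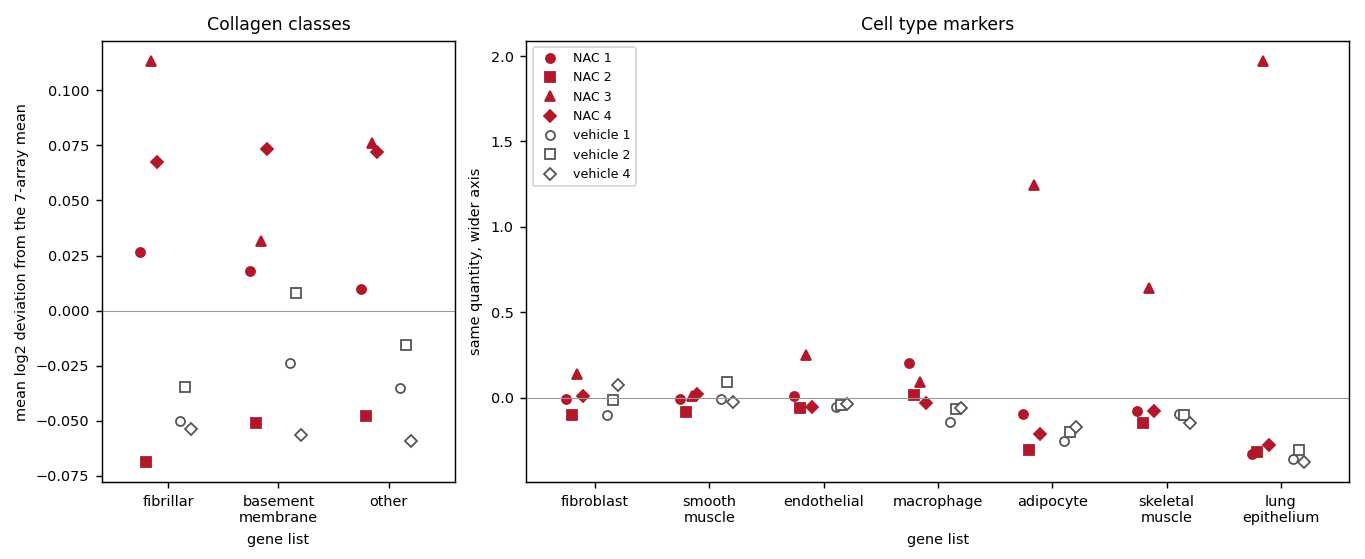
Mean log2 deviation (y axis, relative to the mean of all 7 arrays) over the genes of each list (x axis), for the collagen classes (left) and for cell type markers (right, on a wider axis), with NAC arrays filled and vehicle arrays open. NAC 3 is highest for fibrillar collagens (0.11) and far above all other arrays for adipocyte (1.25), skeletal muscle (0.64) and lung (1.97) markers, while NAC 4 is highest for type IV collagens (0.07) and NAC 2 lies low in every collagen class.

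The proteins that make, secrete, cross-link and sense collagen were examined as lists. By limma, 0 genes of any of these lists passed in either direction, and at an unadjusted p under 0.05, 3 were higher (Serpinh1, Loxl1 and Fbln1), against 1.89% of all genes, and 1 lower (Itga1), against 2.53%. Of 16 measured genes of chain hydroxylation, glycosylation and folding, which act in the endoplasmic reticulum, 12 were higher and 4 lower (median log2 fold change 0.021). Serpinh1, the collagen chaperone HSP47, was at 8.12, 8.29, 8.16 and 8.23 with NAC, against 7.98, 8.13 and 7.94 with vehicle. NAC 1 lay just below vehicle 2, and all other NAC arrays were above the vehicle arrays. Its log2 fold change was 0.19 (standard error 0.06, limma unadjusted p = 0.020), and 0.20 without NAC 3. P4ha2, a prolyl 4-hydroxylase subunit, had -0.16 and the prolyl 3-hydroxylase P3h2 -0.11. Of 11 genes of procollagen export and propeptide cleavage, 6 were higher and 5 lower (median 0.0089), and without NAC 3, 5 were higher and 6 lower (median -0.0189). Pcolce, which enhances removal of the C-propeptide, had 0.16 (0.09 without NAC 3), the C-proteinase Bmp1 0.07 and the export receptor part Ctage5 -0.08. Pcolce had the order of the NAC arrays seen for type I collagen, with 8.83, 8.56, 8.97 and 8.65 on NAC 1 to NAC 4, against 8.61, 8.63 and 8.54 with vehicle.

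Lysyl oxidases start the cross-linking of fibrils. Of 4 measured, 3 were higher and 1 lower (median log2 fold change 0.097). Loxl1 was at 7.60, 7.61, 7.57 and 7.60 with NAC, against 7.48, 7.57 and 7.37 with vehicle. All NAC arrays were at or above vehicle 2, the highest vehicle array. Its log2 fold change was 0.12 (standard error 0.05, limma unadjusted p = 0.042). Lox had 0.17 with a standard error of 0.22 and Loxl3 -0.08. Of 17 collagen-binding matrix proteins, 12 were higher and 5 lower (median 0.034), and without NAC 3, 10 were higher and 7 lower (median 0.014). Fbln1, a fibulin, had 0.18 (standard error 0.07, limma unadjusted p = 0.048), the matricellular protein Sparc 0.17, and Ogn, a small leucine-rich proteoglycan, -0.20. Without NAC 3, the values of these 3 genes were 0.14, 0.09 and -0.26. Of the 5 partners of type IV collagen in basement membranes, 3 were higher and 2 lower (median 0.0010), and without NAC 3, 1 was higher and 4 lower (median -0.0215). With all arrays, log2 fold changes were 0.07 for Nid1, the nidogen that links laminin to type IV, 0.032 for the perlecan gene Hspg2 and -0.025 for the agrin gene Agrn. On NAC 3, Nid1 was at 9.08, against at most 8.82 on any other array, and without NAC 3 its log2 fold change was -0.0043.

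Of 9 measured collagen receptors, 6 were higher and 3 lower (median log2 fold change 0.034). Itga1, the integrin subunit that binds type IV and other collagens, was at 8.762, 8.634, 8.762 and 8.642 with NAC, against 8.837, 8.859 and 8.765 with vehicle. All NAC arrays were below all vehicle arrays, by a narrow margin for NAC 1 and NAC 3. The log2 fold change was -0.12 (standard error 0.05, limma unadjusted p = 0.044), opposite in sign to 39 of the 43 collagens and to Itga2, another collagen-binding integrin subunit, at 0.18. Itga2 was highest on NAC 2, at 7.56, against 7.02 to 7.19 on the other NAC arrays and 7.00 to 7.13 with vehicle. Lair1, an inhibitory collagen receptor of immune cells, had 0.21. TGF-beta is the best known inducer of collagen genes in fibroblasts, and of 14 measured genes of its ligands, receptors and responses 7 were higher and 7 lower (median -0.0070). Tgfb1 had 0.09, Tgfb2 -0.13 and the co-receptor Tgfbr3 -0.07, with all NAC arrays of Tgfbr3 below all vehicle arrays. Such a separation, seen here for Itga1 and Tgfbr3, was found for 2.18% of all genes.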

How the data were processed

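RNA of 1 mouse was hybridized to each array, of the Mouse Gene 1.0 ST type from Affymetrix. The authors deposited log2 expression values, made in R with RMA, which corrects background, normalizes arrays by quantiles and summarizes the perfect-match probes by median polish. These values were used as given. The submitters' notes name affy, RMA and limma, with no versions. Of 20696 probe sets, 18950 named 1 gene, and those naming several (678) or none (1068) were left out. For the 12 genes with several probe sets, that of highest mean was kept. No column of values lacked a sample. NAC and vehicle were compared in limma (version 3.58.1, R 4.3.3) by lmFit and eBayes, two-sided and with no covariates, over all 18938 genes, and p-values were adjusted by Benjamini-Hochberg. The fit was tested on simulated data. Median fold changes of lists are descriptions without a test.

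The members and lists were chosen with earlier results of these data known. Named in each collagen class are the 2 members of highest mean, the 4 of smallest unadjusted p and any without overlap of the groups. Other lists name up to 3 genes of smallest p, or up to 2 markers highest on NAC 3. Alternatives left out each array, subtracted array medians, repeated the quantile normalization, dropped dim genes (means below the 40th percentile), took the median over probe sets, fitted a variance trend robustly, weighted arrays, added a replicate block, required a 1.5-fold change, or used unequal variances. Col20a1 was not analysed here. With summarized values the signal over background is hidden, and 7 arrays limit the precision.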

Additional observations from a re-analysis of the deposited data

Results flagged for a closer look

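In 4 collagen genes, a single NAC array lay far from the other NAC arrays, measured as its gap to the nearest array over the range of the 4 arrays and set against Dixon's 95% critical value. For values without ties, chance alone gives about 1 in 20 such cases, and 47 sets of 4 NAC values were examined. Col11a1 had a ratio of 1.0, with NAC 4 at 6.67 and the other NAC arrays at 6.54. Col4a1 also had a ratio of 1.0, with NAC 4 at 7.95 and the others at 7.94, a gap that is small beside the vehicle SD of 0.08. In both genes NAC 1, NAC 2 and NAC 3 held an identical value. Any gap of NAC 4 then gives a ratio of 1.0, so no conclusion is drawn from these ratios. Col22a1, a collagen of muscle and tendon junctions, had 0.911, with NAC 4 at 7.02 and the others between 6.92 and 6.93. Col4a6 had 0.879, with NAC 2 at 9.02 and the others between 9.39 and 9.44. The causes were not tested.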

How the results depend on the processing

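The number of collagens past the threshold was 0 under every alternative run. Over all genes it was 0 as well, except that leaving out each array in turn gave 0 to 1, with 1 without NAC 4. A test with unequal variances called 0 genes and had 1 collagen at an unadjusted p under 0.05, against 379 of all 18938 genes. The median log2 fold changes kept their sign under every alternative, and with each array left out they ranged from 0.035 to 0.086 over all collagens, 0.047 to 0.10 for fibrillar, 0.015 to 0.068 for type IV and 0.021 to 0.081 for other types. Of 594 values of single collagens, 567 kept their direction, and 28 of the 43 genes kept it throughout. Part of this tally was fixed beforehand. The median over probe sets, the robust variance trend and the filter on dim genes cannot change the fold change of a collagen with a single probe set. They gave 43, 43 and 35 of the values, with 0 reversed. The first 2 of these settings could not move the medians either. The replicate block repeated the fold changes found with an array left out. The 567 values are thus not a measure of robustness. With the replicate block, -0.0077 was found for Col1a2, -0.0060 for Col6a2, -0.0128 for Col8a2 and -0.0017 for Col25a1. Quantile normalization again gave 0.0056 for Col4a5, -0.0143 for Col19a1 and -0.0031 for Col25a1, and array weights -0.0185 for Col19a1. The cause was not tested.

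With each array left out, the values ranged from -0.0077 to 0.14 for Col1a2, -0.0265 to 0.064 for Col2a1, -0.0295 to 0.082 for Col4a2, -0.0391 to 0.027 for Col4a5, -0.0077 to 0.13 for Col4a6, -0.0060 to 0.076 for Col6a2, -0.0138 to 0.051 for Col8a2, -0.0094 to 0.12 for Col9a1, -0.0019 to 0.098 for Col10a1, -0.0349 to 0.18 for Col12a1, -0.0353 to 0.14 for Col13a1, -0.0455 to 0.066 for Col19a1, -0.0049 to 0.029 for Col22a1, -0.0017 to 0.081 for Col25a1 and -0.0002 to 0.027 for Col26a1.

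Replicate numbers are shared by both groups, and no label says whether they pair the mice. Deviations of same-numbered arrays correlated at 0.21 (number 1), 0.29 (number 2) and -0.07 (number 4), so that the numbers were not taken as pairs. NAC 1 and NAC 2 correlated best with their own number, and NAC 4 did not. The replicate block gives NAC 3 no weight, so the block repeated the fold changes found without NAC 3. It left 35 collagens higher and 0 past the threshold, with 956 genes at an unadjusted limma p under 0.05. Without the block there were 836 such genes with all arrays, and 637 with NAC 3 left out, which is the like comparison. Under the filter on dim genes 35 collagens were left, 33 of them higher (94.3%, against 38.5% of all genes left). Summarized values hide the signal over background, so a dim collagen cannot be told from background.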
